A study of Mus musculus with 6 samples.

Results

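The sarcomeric myosin light chains and their kinases were examined as 7 genes of the 55401 in the count matrix, taken by symbol: the essential light chains *Myl1*, *Myl3* and *Myl4*, the regulatory light chains *Myl2* and *Mylpf*, and the muscle kinases *Mylk2* and *Mylk4*. A sarcomeric myosin is built from a pair of heavy chains, and each head carries an essential and a regulatory light chain wrapped around its neck, which stiffens the lever that swings during contraction. Calcium-calmodulin activates the light chain kinase of skeletal muscle, which phosphorylates the regulatory light chain and makes the heads more ready to bind actin. Early muscle fibers carry a mixture of light chain isoforms, and fast fibers settle on the products of *Myl1* and *Mylpf*, while *Myl2* and *Myl3* belong to slow fibers and the cardiac ventricle, and *Myl4* to embryonic muscle and the atrium.

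In all 6 libraries the RNA was polyadenylated and came from C2C12, a line of mouse myoblasts that fuse into myotubes in low serum, 2 d after the switch to DMEM with 2% horse serum and 1% PS. Control cells (3 libraries) are titled wild type in the labels, and the study's methods describe them as mock cells that received the fluorescent plasmid without a specific guide. *Phf2* KO cells (3 libraries) received a mixture of plasmids carrying different *Phf2* guides for CRISPR/Cas9, and *Phf2* encodes PHF2, a histone demethylase that acts on H3K9me2. Both groups were sorted for the fluorescent reporter and expanded as pools, not as clones, so each group is a single pool of cells. The libraries are wells of one experiment, so the p-values measure the spread between these wells only. Values of single libraries are listed in the order of replicates 1, 2 and 3. The comparison asks how loss of *Phf2* changed these genes early in differentiation.

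The total of estimated counts was 56821143 to 58507833 in control libraries and 52526109 to 67502788 in *Phf2* KO libraries. A read pair adds about 4 to these counts, so a count of 12 stands for 3 read pairs. *Phf2* itself was at 95.5 to 104.6 CPM (counts scaled to library size by TMM) in control libraries and 37.6 to 41.1 CPM in *Phf2* KO libraries (log2 fold change -1.37 ± 0.055 SE, adjusted p = 8.32e-09, edgeR quasi-likelihood test with Benjamini-Hochberg adjustment). The labels call the cells myotubes. Of the 7 myotube markers, 6 were lower past the threshold (an adjusted p under 0.05) in *Phf2* KO cells, against 3.26% of all genes tested. The call of *Myog* was lost in the limma fits on TPM and without control replicate 1 or 2 or *Phf2* KO replicate 2 or 3. *Acta1* did not pass, but did with exactTest, DESeq2, limma-voom, the replicate block and without control replicate 3. The summed level of the 7 was 4455 to 5292 CPM in control and 3602 to 4056 CPM in *Phf2* KO libraries. Of the 5 myoblast markers 0 passed the edgeR quasi-likelihood test (2 at an unadjusted p under 0.05), and their summed level was 290.5 to 341 CPM in control and 352 to 379 CPM in *Phf2* KO libraries. *Id3* passed with exactTest and limma-voom, and *Id3* and *Id1* with DESeq2, both with positive log2 fold changes (0.50 and 0.29). Of the 4 proliferation markers 0 passed with any of these tools, and 0 had an unadjusted p under 0.05. Fewer differentiated cells in a well and less RNA of these genes per cell cannot be told apart in bulk RNA.

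The bases before the RefSeq gene start were read for the 3 light chains that make up nearly all of the signal. The first assembled base of 2 of them, *Mylpf* and *Myl4*, differed between control and *Phf2* KO libraries. The main *Mylpf* locus, however, began at 127211608 in every library except *Phf2* KO replicate 3. In *Phf2* KO replicates 1 and 2 the earlier base belonged to a separate small locus of 2.081 and 1.178 TPM. It lay at the start of the annotated gene (127208890). The assembled *Myl1* locus, on the minus strand, began at 66945404 in replicate 1 of each group and at 66945143 in the other libraries. Both positions lie upstream of the RefSeq start at 66945056. The *Myl1* window (66945057-66945306) was thus wholly inside the assembled span in replicate 1 of each group and partly inside it in the others. The assembled *Myl4* locus began at 104576985 in all 3 control libraries and at 104575446 in *Phf2* KO replicate 3. Both positions lie far downstream of the RefSeq start at 104550663, so the *Myl4* window read here is not the stretch before them. In *Phf2* KO replicates 1 and 2 the locus began at 104550531 and 104550529, inside that window. Of the 7 members, 6 had a RefSeq entry (GRCm38.p6), and *Mylk2* did not. Each line gives the strand of the gene, 5′ to 3′, with CAGCTG and TATAAA (read on either strand) in capitals. The windows are chr7:127211358-127211607 on the plus strand for *Mylpf*, chr11:104550413-104550662 on the plus strand for *Myl4*, and chr1:66945144-66945290 on the minus strand for *Myl1*, which is the stretch of its 250 bases outside annotated coding-transcript exons.
Mylpf: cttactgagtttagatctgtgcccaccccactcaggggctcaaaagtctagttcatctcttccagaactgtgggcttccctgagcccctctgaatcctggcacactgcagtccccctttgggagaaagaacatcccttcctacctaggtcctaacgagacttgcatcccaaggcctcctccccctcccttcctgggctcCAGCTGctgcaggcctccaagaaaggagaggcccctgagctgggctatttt
Myl4: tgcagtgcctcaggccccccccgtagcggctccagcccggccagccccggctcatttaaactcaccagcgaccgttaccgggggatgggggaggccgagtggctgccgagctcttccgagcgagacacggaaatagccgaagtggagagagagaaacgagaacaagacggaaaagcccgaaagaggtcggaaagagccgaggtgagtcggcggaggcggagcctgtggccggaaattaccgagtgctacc
Myl1: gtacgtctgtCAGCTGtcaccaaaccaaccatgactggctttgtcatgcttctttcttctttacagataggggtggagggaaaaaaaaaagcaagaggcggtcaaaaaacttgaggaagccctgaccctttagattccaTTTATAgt

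CAGCTG, a form of the E-box CANNTG that muscle basic helix-loop-helix factors can bind, lay from -51 to -46 relative to the start of *Mylpf* and from -224 to -219 relative to that of *Myl1*. The *Myl1* window also held TATAAA on the opposite strand, from -95 to -90. The *Myl4* window held no match to CAGCTG, none to TATAAA and none to the letters CCAAT, and neither a MEF2 motif nor a CArG box, which says only that these letters were absent from these 250 bases. In the *Mylk4* window a MEF2 motif lay from -103 to -94, CAGCTG from -64 to -59 and CCAAT from -35 to -31. CCAAT also lay from -49 to -45 relative to the start of *Myl1*, within its 250 bases but outside the printed stretch. Those bases fall inside the assembled *Myl1* span of every library. In the *Myl3* window CCAAT lay from -92 to -88 and a CArG box from -85 to -76. Of the *Myl2* entries, 1 held TATAAA from -216 to -211 and CAGCTG from -130 to -125, and the other held no match. These entries start at 122093189 and 122092724, far before the annotated gene at 122100951. No annotated *Myl2* transcript held the bases directly after either start. Among all 32851 RefSeq promoters of the same length, 13.0% held CAGCTG, 12.4% TATAAA, 33.8% CCAAT, 2.92% a MEF2 motif and 1.47% a CArG box, on either strand. The broader CANNTG, which includes CAGCTG, was found in 66.2%.

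Of the 7 members, 6 had enough counts to be tested, and 4 of these were lower past the threshold in *Phf2* KO cells: *Myl4*, *Myl1*, *Mylpf* and *Mylk2*. Among all 17310 genes tested, 3.26% were lower past the threshold and 3.22% were higher (6.48% in either direction, 1122 genes). The other tested members, *Mylk4* and *Myl2*, did not pass. The median log2 fold change of the 6 was -0.45, or -0.42 over the 5 without *Myl2*, whose counts were near the detection floor, against -0.00096 over all genes tested. Together the members took 0.182% to 0.216% of all counts in control libraries and 0.136% to 0.156% in *Phf2* KO libraries. The groups did not overlap for these 4 members, each time with the *Phf2* KO libraries below. Of all genes tested, 12.2% had groups apart in this direction, 12.9% in the other and 25.1% in either.

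**Figure D1:**
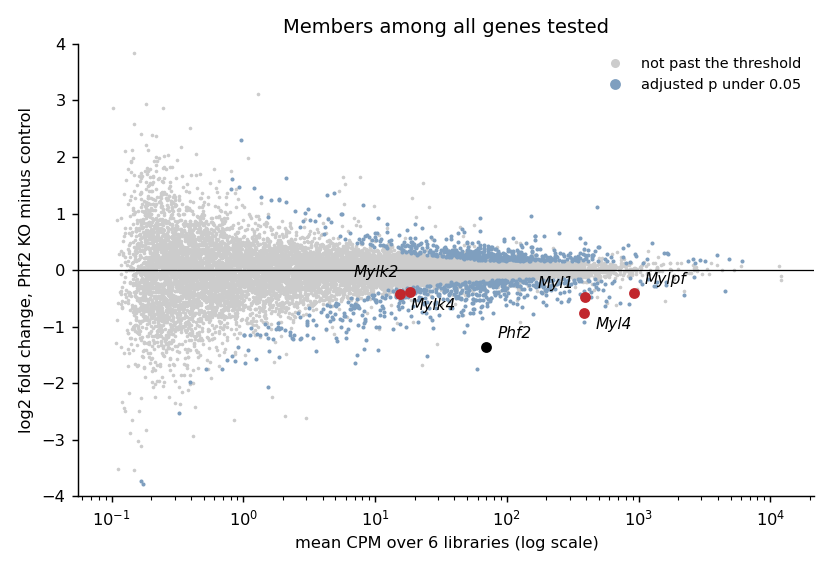
Log2 fold change (*Phf2* KO minus control) against mean CPM over the 6 libraries on a log axis, for 17305 of 17310 genes tested (5 lie beyond the vertical axis). Blue-grey points passed an adjusted p of 0.05, red points are the 5 expressed members, all of which lie below 0, and the black point is *Phf2*.

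The essential light chains are taken first. *Myl4* (ENSMUSG00000061086, chromosome 11, 104550663 to 104595753, plus strand), the embryonic and atrial isoform, was at 493, 540.1 and 433 CPM in the control wells, against 312, 280.2 and 271 CPM after *Phf2* KO. The groups did not overlap, and the lowest control library was above the highest *Phf2* KO library by more than the range within the *Phf2* KO group. The means were 488 ± 53.8 CPM in control and 288 ± 21.6 CPM in *Phf2* KO cells (SD, n = 3 each), the latter 58.9% of the former. The log2 fold change was -0.76 ± 0.087 (SE, adjusted p = 0.00249, edgeR quasi-likelihood test). It stayed past the threshold in all 12 other fits of the 6 libraries and in all 6 fits without a library, where the log2 fold change ranged from -0.84 to -0.68. An antisense gene overlaps *Myl4*, and whether the counting used the strand of the reads is not given in the sources used here.

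*Myl1* (ENSMUSG00000061816, chromosome 1, 66924295 to 66945404, minus strand) encodes the essential light chains of fast fibers, a longer and a shorter form made from different starts. It was at 483, 478 and 410.0 CPM in the control wells, against 346, 310.5 and 327 CPM after *Phf2* KO. All *Phf2* KO libraries were below all control libraries, and control replicate 3 was the lowest of its group, as it was for each of the 5 expressed members. The mean fell from 457 ± 40.7 to 328 ± 17.8 CPM (SD, n = 3 each), 71.7% of control. The log2 fold change was -0.48 ± 0.063 (SE, adjusted p = 0.00107, edgeR quasi-likelihood test), and it too passed the threshold in all 12 other fits and all 6 fits without a library. Levels of its 2 forms were not analysed here. Of the 75-base stretches of *Myl1* transcripts, 8.08% were also found in the pseudogene *Mylf-ps*, named here after its values were seen. Its own row held 3672, 3416 and 3011 counts in control and 2809, 2113 and 2921 in *Phf2* KO libraries (log2 fold change -0.44 ± 0.078 SE), and reads of the pair could have been split between them.

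*Myl3* (ENSMUSG00000059741, chromosome 9), the slow and ventricular essential chain, had 0 counts in every library, which allows at most 12 counts (3 read pairs) or 0.178 to 0.228 CPM in a library. It was not tested.

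**Figure D2:**
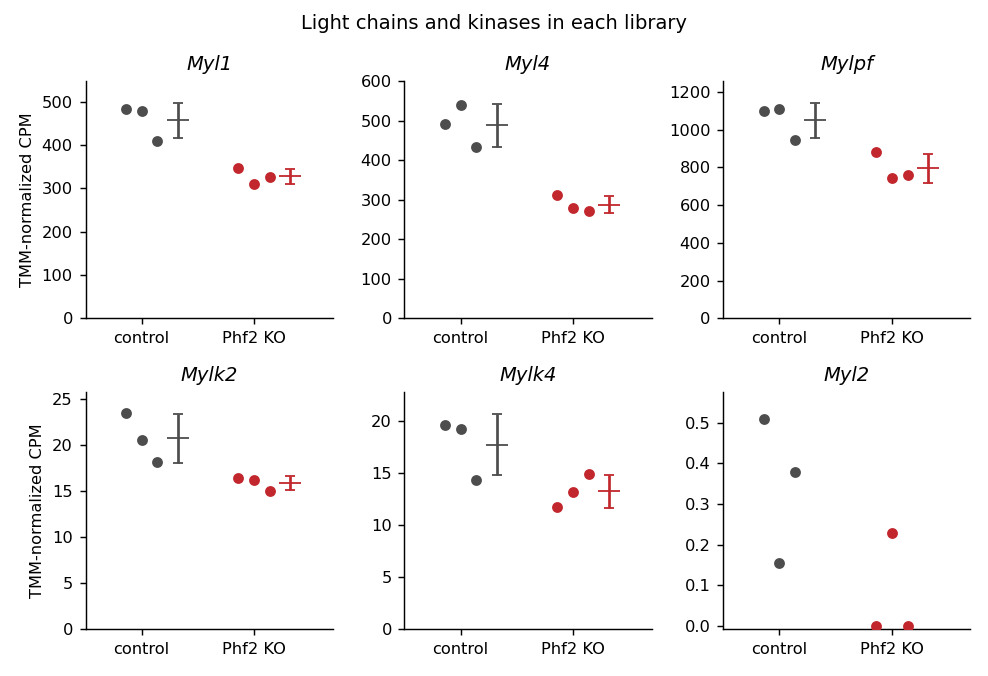
TMM-normalized CPM of the 6 members with counts, in each of 3 control libraries (grey) and 3 *Phf2* KO libraries (red), in the order of replicates 1, 2 and 3, with bars for mean ± SD and none for *Myl2*. The groups are apart for *Myl1*, *Myl4*, *Mylpf* and *Mylk2* and overlap for *Mylk4* and *Myl2*; *Myl2* reaches at most 0.509 CPM.

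Among the regulatory light chains, *Mylpf* (ENSMUSG00000030672, chromosome 7, 127208890 to 127214298, plus strand), the fast skeletal chain, was the most abundant member. It was at 1098, 1111 and 944 CPM in the control wells, against 880.5, 744 and 758 CPM after *Phf2* KO. The groups did not overlap, but *Phf2* KO replicate 1 came close to control replicate 3. The mean fell from 1051 ± 92.8 to 794 ± 75.2 CPM (SD, n = 3 each), 75.6% of control. The log2 fold change was -0.40 ± 0.088 (SE), with an adjusted p of 0.048 in the edgeR quasi-likelihood test, just inside the threshold. The call was lost when control replicate 1 (adjusted p = 0.205) or 2 (0.108) or *Phf2* KO replicate 2 (0.084) or 3 (0.218) was left out, and in 5 of 12 other fits of the 6 libraries, always with the log2 fold change between -0.48 and -0.36.

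*Myl2* (ENSMUSG00000013936, chromosome 5), the slow and ventricular regulatory chain, was hardly detected. Its counts were 29, 9 and 22 in the control wells, against 0, 12 and 0 after *Phf2* KO. The groups overlap, with all values from 0 to 29 counts, where 3 read pairs give 12, and the adjusted p was 0.318 (edgeR quasi-likelihood test). Without *Phf2* KO replicate 2, the library at 12 counts, it was 0.0408. A difference in *Myl2* was not detectable at this depth with all libraries in, and *Myl2* overlaps the antisense gene *Ccdc63*.

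The kinases were far less abundant than the chains. *Mylk2* (ENSMUSG00000027470, chromosome 2, 152911352 to 152923068, plus strand), the skeletal muscle light chain kinase, was at 23.5, 20.6 and 18.2 CPM in the control wells, against 16.4, 16.2 and 15.03 CPM after *Phf2* KO. The groups were apart, and the control libraries spread more widely than the *Phf2* KO libraries. The mean was 20.8 ± 2.65 CPM (SD, n = 3) against 15.9 ± 0.76 CPM (SD, n = 3), 76.5% of control, with a log2 fold change of -0.39 ± 0.0998 (SE, adjusted p = 0.0336, edgeR quasi-likelihood test). The call held without control replicate 3 (adjusted p = 0.0127) and was lost when any other library was left out, at 0.147 and 0.115 without control replicate 1 or 2 and at 0.062, 0.0938 and 0.143 without *Phf2* KO replicate 1, 2 or 3. It was also lost with limma-voom (0.0624) and with limma on TPM (0.194 and 0.191).

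*Mylk4* (ENSMUSG00000044951, chromosome 13, 32700827 to 32783954, minus strand), a related kinase, was at 19.6, 19.2 and 14.3 CPM in the control wells, against 11.7, 13.2 and 14.9 CPM after *Phf2* KO. The groups overlapped, because control replicate 3 lay within the range of the *Phf2* KO libraries. The mean was 17.7 ± 2.94 CPM (SD, n = 3) against 13.3 ± 1.58 CPM (SD, n = 3), and the log2 fold change of -0.42 ± 0.129 (SE) did not pass (adjusted p = 0.0779, edgeR quasi-likelihood test). It passed with DESeq2 (adjusted p = 0.021) and without control replicate 3 (0.0124). On the TPM scale its direction turned, with 4.63, 2.51 and 3.56 TPM in the control wells against 5.03, 3.83 and 3.02 TPM after *Phf2* KO, so no direction can be given for *Mylk4*. The gene model *Gm27342* overlaps it.

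**Figure D3:**
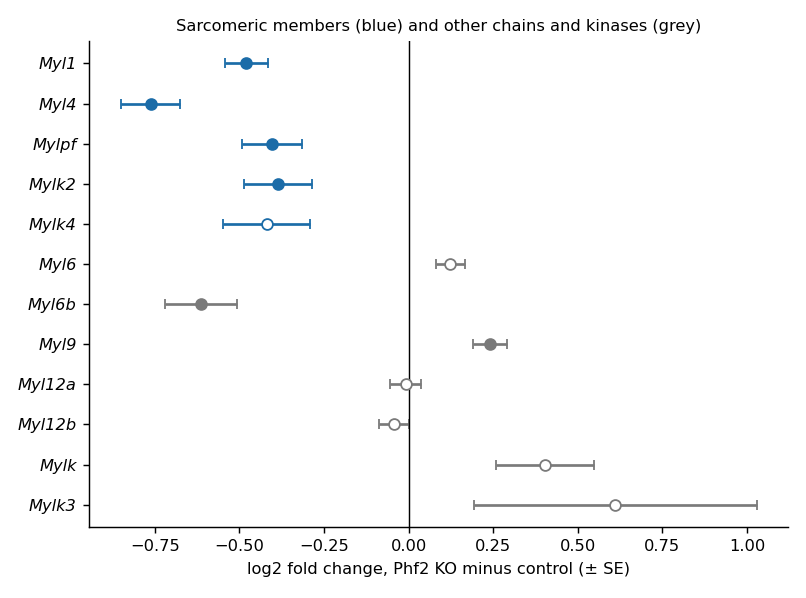
Log2 fold change (*Phf2* KO minus control) ± SE from the edgeR quasi-likelihood fit for the 5 expressed members (blue) and for light chains and kinases outside the member list (grey). Points are filled where the adjusted p is under 0.05. The blue points lie between -0.76 and -0.39, and of the grey points only *Myl6b* is filled on the lower side and only *Myl9* on the higher.

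Levels of different genes were compared per length, as TPM of the reference genes. In control cells the order was *Mylpf* at 2964 ± 246 TPM, *Myl4* at 1004 ± 109.7, *Myl1* at 813 ± 59.4, *Mylk2* at 15.2 ± 1.89, *Mylk4* at 3.57 ± 1.06 and *Myl2* at 0.394 ± 0.103 (SD, n = 3 each). In *Phf2* KO cells the same order began with *Mylpf* at 2259 ± 181 TPM, but *Myl1* at 564 ± 48.3 and *Myl4* at 563 ± 38.2 TPM (SD, n = 3 each) did not differ beyond their spread. The kinases followed with *Mylk2* at 11.7 ± 0.31 and *Mylk4* at 3.96 ± 1.01 TPM. The pseudogene *Mylf-ps*, which could share reads with *Myl1*, was at 299 ± 31.4 TPM in control and 222 ± 13.6 TPM in *Phf2* KO cells (SD). How much of this is *Myl1* signal was not tested, so the order of *Myl4* and *Myl1* and their shares of TPM carry this limit.

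The balance within each role was then followed as a share of TPM in the same library. *Myl4* made up 53.9%, 57.9% and 53.8% of essential light chain TPM (*Myl1*, *Myl3* and *Myl4* together) in the control wells, against 50.1%, 51.2% and 48.6% after *Phf2* KO. The groups did not overlap, at 55.2 ± 2.37% in control against 49.98 ± 1.28% (SD, n = 3), a difference of -5.22 percentage points (two-sided exact permutation p = 0.1, the smallest that 3 libraries against 3 allow). The difference was -4.89 points from counts and -3.69 points from the TPM of assembled loci, which are the transcripts that StringTie built from the reads of a library. By assembled loci the share was 45.5% in control and 41.8% in *Phf2* KO cells, so which of *Myl4* and *Myl1* was the larger depends on the measure, while the lower share in *Phf2* KO cells did not.

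*Mylpf* made up more than 99.98% of regulatory light chain TPM in each library, and *Myl2* the rest. *Mylk2* made up 78.8%, 85.6% and 79.0% of the TPM of the 2 kinases in the control wells, against 70.3%, 75.6% and 79.0% after *Phf2* KO. These ranges overlapped (difference -6.18 points, two-sided exact permutation p = 0.2), and from counts the difference was 0.546 points. This difference was within the spread between libraries.

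Whether members fell by the same factor was examined within libraries. The log2 ratio of *Myl4* to *Myl1* TPM changed by -0.30, and that of *Myl4* to *Mylpf* by -0.44, each with groups that did not overlap and a two-sided exact permutation p of 0.1, the smallest possible (0.15 after Benjamini-Hochberg adjustment over the 3 pairs compared). The ratio of *Mylk2* to *Mylk4* changed by -0.53 with overlapping groups (exact permutation p = 0.2, adjusted 0.2). Summed essential chain TPM per regulatory chain TPM was 0.615, 0.61 and 0.614 in the control wells, against 0.492, 0.496 and 0.509 after *Phf2* KO. By assembled loci it was 0.864, 0.893 and 0.869 in control and 0.729, 0.779 and 0.735 in *Phf2* KO libraries, so both measures placed every *Phf2* KO library lower. The sum joins *Myl4* (log2 fold change -0.76) with *Myl1* (-0.48), which was nearer to *Mylpf* (-0.40). The ratio of *Myl1* to *Mylpf* was not compared on its own.

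**Figure D4:**
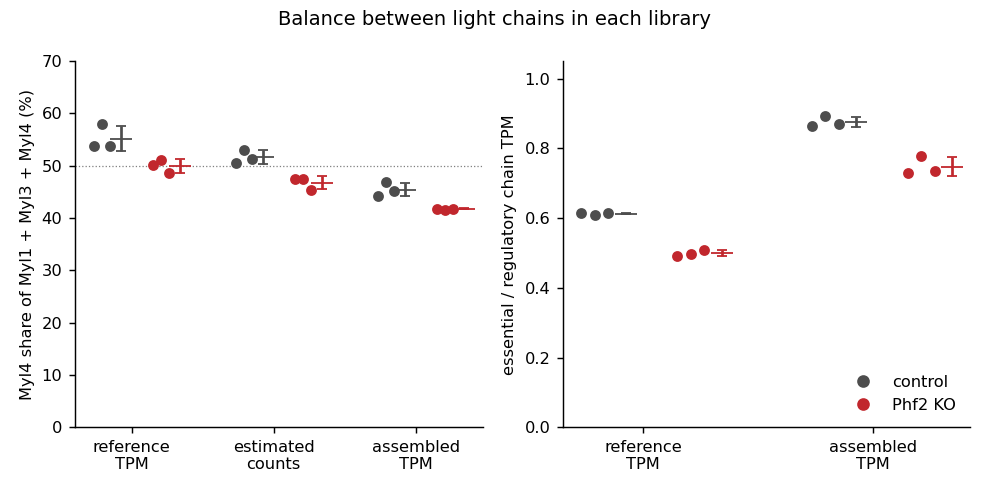
Left, *Myl4* as a percentage of essential light chain signal in each library by 3 measures, with a dotted line at 50%; right, summed essential chain TPM divided by summed regulatory chain TPM by 2 measures. Points are libraries (control grey, *Phf2* KO red) with mean ± SD beside them, and in each pair of groups all *Phf2* KO points lie below all control points.

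The light chains outside the member list, of nonmuscle and smooth muscle myosin, the atrium and, for *Myl6b*, also slow muscle, went in different directions. Of 7 such genes 5 were tested, 1 was lower and 1 higher past the threshold, and their median log2 fold change was -0.0088. *Myl6b*, an essential chain of slow muscle and nonmuscle cells, was at 129, 122.6 and 103 CPM in the control wells, against 85.3, 69.1 and 77.4 CPM after *Phf2* KO. The groups did not overlap (log2 fold change -0.61 ± 0.106 SE, adjusted p = 0.0195, edgeR quasi-likelihood test), but on the TPM scale they did (adjusted p = 0.464 in both limma fits), and the call was lost without control replicate 2 (0.0727) or *Phf2* KO replicate 3 (0.0949). *Myl9*, a regulatory chain of smooth muscle and nonmuscle cells, was at 148, 134 and 134 CPM in the control wells, against 168, 167 and 158 CPM after *Phf2* KO. It was higher in each of the latter (log2 fold change 0.24 ± 0.051 SE, adjusted p = 0.0108, edgeR quasi-likelihood test), a call lost when control replicate 2 (0.0787) or 3 (0.0571) or *Phf2* KO replicate 2 (0.0585) was left out and in the limma fits on TPM (0.0724 and 0.069).

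The other chains did not pass. *Myl6*, the main nonmuscle essential chain, was at 708 ± 20.5 CPM in control and 771 ± 33.5 CPM in *Phf2* KO cells (SD, n = 3 each), with groups apart, a log2 fold change of 0.12 ± 0.042 (SE) and an adjusted p of 0.105 (edgeR quasi-likelihood test; 0.0492 without *Phf2* KO replicate 3). *Myl12a* and *Myl12b*, the nonmuscle regulatory chains, had log2 fold changes of -0.0088 ± 0.046 and -0.043 ± 0.044 (SE). They share 14.6% and 15.9% of their 75-base transcript stretches with each other or a pseudogene, so reads can be split between them. *Myl7*, the atrial regulatory chain, had 0 counts in every library, and *Myl10* had 5 counts in *Phf2* KO replicate 1 and 0 elsewhere.

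The kinase of smooth muscle and nonmuscle cells, *Mylk*, was at 80.3, 78.5 and 58.5 CPM in the control wells, against 105.6, 88.3 and 93.0 CPM after *Phf2* KO. Its groups did not overlap, and its log2 fold change of 0.40 ± 0.145 (SE) did not pass (adjusted p = 0.221, edgeR quasi-likelihood test). With the replicate number as a block the adjusted p was 0.0448, with exactTest 0.0127 and without control replicate 3 0.0445. On the TPM scale its groups overlapped, at 3.74 ± 0.416 TPM in control and 3.93 ± 0.76 TPM in *Phf2* KO cells (SD, n = 3 each), with log2 fold changes of 0.047 and 0.056 in the limma fits (adjusted p of 0.93 and 0.931). *Mylk3*, the cardiac kinase, was at most 0.895 CPM in any library (adjusted p = 0.485).

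The genes around the light chains were read from lists of partners. Of the 9 sarcomeric heavy chain genes, which encode the motor that the light chains bind, 8 were lower past the threshold of the edgeR quasi-likelihood test. With the replicate number as a block 6 passed, without *Myh4* (adjusted p = 0.0657) and *Myh7* (0.0873). The count was 5 without *Phf2* KO replicate 1 or 3, 6 without control replicate 1 or 2 or *Phf2* KO replicate 2, and 2 and 3 in the limma fits on TPM. Each of the 9 had a negative log2 fold change, and their median was -0.93. No direction can be given for *Myh13*, at -0.39 ± 1.318 (SE, adjusted p = 0.925, edgeR quasi-likelihood test). Its counts were 689, 285 and 97 in control and 84, 55 and 788 in *Phf2* KO libraries. The largest changes were those of *Myh8* (log2 fold change -1.75 ± 0.082 SE), the perinatal chain, *Myh4* (-1.10 ± 0.200), the fast 2B chain, *Myh6* (-1.001 ± 0.116), the alpha cardiac chain, and *Myh7b* (-0.98 ± 0.180). *Myl4*, with the largest change among the members called, was at -0.76 in the same fit, and the difference was not tested. Of 4 heavy chains of nonmuscle and smooth muscle myosin, *Myh10* was higher (0.48 ± 0.042) and the other 3 did not pass.

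Of 7 genes for folding and turnover of myosin, 5 were lower past the threshold of the edgeR quasi-likelihood test and the other 2 did not pass. They include *Unc45b*, the myosin chaperone of striated muscle (log2 fold change -0.69 ± 0.068 SE), and the muscle RING finger genes *Trim55* (-0.52 ± 0.073), *Trim54* (-0.50 ± 0.113) and *Trim63* (-0.38 ± 0.094). The count fell to 2 (*Unc45b* and *Trim55*) without control replicate 1 or 2 or *Phf2* KO replicate 2 and in both limma fits on TPM. Of 10 muscle transcription factors, 4 were lower past the same threshold, *Mef2c* (-1.52 ± 0.126), *Myog* (-0.34 ± 0.071), *Mef2d* (-0.28 ± 0.044) and *Mef2a* (-0.21 ± 0.047), and the other 6 did not pass. DESeq2 called 6, with *Myod1* and *Six4* also lower, the limma fits on TPM called 0, and without control replicate 2 or *Phf2* KO replicate 2 the edgeR test called 2 (*Mef2c* and *Mef2d*). *Mef2c*, *Mef2d* and *Mef2a* encode factors that bind the MEF2 motif, and *Myog* encodes myogenin, an E-box factor.

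The lists on phosphorylation of regulatory chains were read next. Of 8 other kinases of the regulatory chain, 1 was higher in the edgeR quasi-likelihood test (*Cdc42bpa*, log2 fold change 0.21 ± 0.045 SE) and the other 7 did not pass. The *Cdc42bpa* call was lost without control replicate 1 or *Phf2* KO replicate 1 or 3 and in the limma fits on TPM. Of 6 tested genes for the myosin phosphatase and its inhibitors, 1 was higher in the same test (*Ppp1cb*, the catalytic subunit, 0.27 ± 0.044) and the other 5 did not pass. DESeq2 also called the targeting subunits *Ppp1r12a*, higher, and *Ppp1r12b*, lower, the replicate block added *Ppp1r12a*, and the limma fits on TPM called 0. The 3 calmodulin genes had log2 fold changes from -0.13 to 0.13, and 0 passed with edgeR, DESeq2 or limma-voom (2 at an unadjusted p under 0.05). Over the 8 lists 52 of 55 genes were tested, 18 were lower and 4 higher past the threshold.

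**Figure D5:**
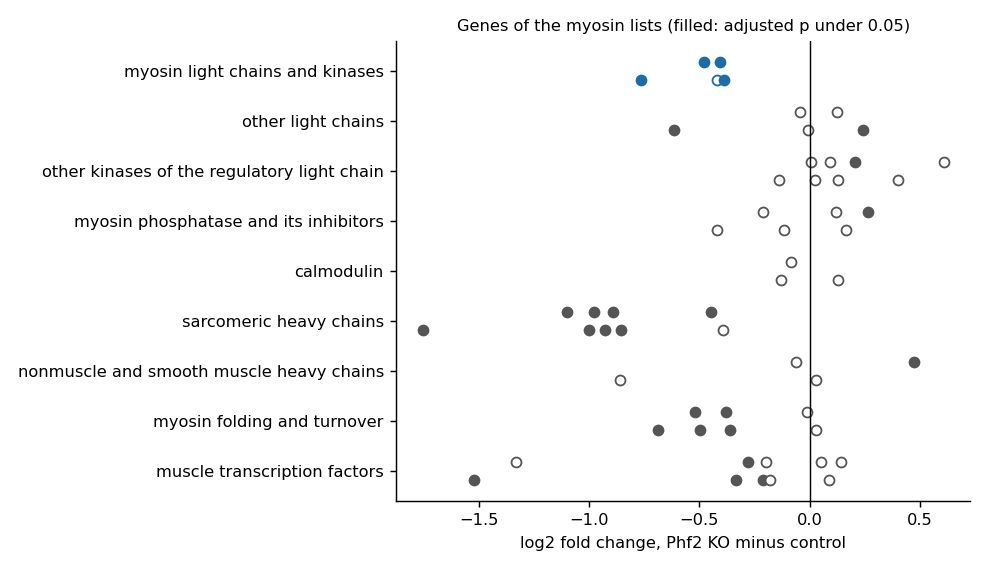
Log2 fold change (*Phf2* KO minus control) of each tested gene in the members' list (blue, without *Myl2*) and in 8 lists of partner genes (grey), with filled points where the adjusted p of the edgeR quasi-likelihood test is under 0.05. The filled points of the sarcomeric heavy chains lie from -1.75 to -0.44 and those of the members from -0.76 to -0.39.

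Among 9613 other genes whose mean level reached 10 CPM, the 5 whose log2 CPM most resembled the mean standardized profile of the 6 tested members over the 6 libraries were *Coq8a* (Pearson r = 0.9977), *Bin1* (0.9974), *Smpx* (0.9967), *Rap1gap2* (0.9949) and *Pcx* (0.9939). These correlations describe 6 points that share the difference between the groups. All 5 were lower past the threshold, with log2 fold changes from -0.81 for *Smpx* to -0.24 for *Bin1*. Their choice by a profile that is lower in *Phf2* KO libraries largely fixed this direction. *Smpx* encodes a small muscle protein linked to the cytoskeleton, and *Bin1* a membrane-bending protein of the T-tubules.

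Markers of other cells were read in the same libraries. Among the 5 cardiomyocyte markers 2 were tested, with *Myh6*, which is also among the heavy chains above, lower, *Tnni3* at 1.43 CPM in both groups (log2 fold change 0.0015 ± 0.312 SE) and *Myl7* at 0 in every library. The summed level was 19.8 to 27.6 CPM in control and 12.7 to 13.2 CPM in *Phf2* KO libraries. The 4 smooth muscle markers summed to 3142 to 3214 CPM in control and 3447 to 3609 CPM in *Phf2* KO libraries, with *Acta2* higher in the edgeR quasi-likelihood test (log2 fold change 0.17 ± 0.031 SE), though not with exactTest or without *Phf2* KO replicate 2. *Cnn1* had a log2 fold change of -0.52 ± 0.163 (SE), which passed with DESeq2 and not with edgeR (adjusted p = 0.0782), *Smtn* was at -0.098 ± 0.0476 (adjusted p = 0.28, edgeR), and *Myh11*, the defining heavy chain, was at a mean of 0.259 CPM in control and 0.244 CPM in *Phf2* KO libraries. The 4 fibroblast markers summed to 16548 to 18138 CPM in control and 16750 to 18112 CPM in *Phf2* KO libraries, with *Col1a1* higher in the edgeR quasi-likelihood test (log2 fold change 0.20 ± 0.042 SE). That call was lost with exactTest, in the limma fits on TPM and without control replicate 1 or 3 or *Phf2* KO replicate 2. *Col3a1* (-0.11 ± 0.039 SE, adjusted p = 0.116), *Dcn* (0.21 ± 0.082, 0.204) and *Pdgfra* (0.14 ± 0.082, 0.408) did not pass with edgeR, while *Dcn* passed with DESeq2, with the replicate block and without control replicate 1, and *Col3a1* passed without control replicate 3. The part of these markers in the light chain values was not tested.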

How the data were processed

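The deposited count matrix holds estimated counts per gene, which the authors obtained with StringTie after alignment to mm10 with HISAT2. Versions, annotation and the use of strand are not given in the sources used here. The matrix holds whole numbers without any scaling between libraries, and they were used as deposited. From the deposited table of each library the TPM column was taken, a signal scaled by the authors within that library. A table lists reference genes and assembled loci together, and the reference rows were used unless assembled loci are named. The deposited coverage column, another unit written by StringTie, served only to work out how many counts a read pair adds.

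The counts were tested with edgeR 4.0.16 in R 4.3.3 (filterByExpr with a minimum count of 10, TMM, robust quasi-likelihood test). Adjusted p-values are Benjamini-Hochberg values over the 17310 genes tested, with a threshold of 0.05. Shares and ratios of TPM were compared by two-sided exact permutation tests. Detection limits of 3 read pairs cover counting error only. The alternatives were exactTest, DESeq2 1.42.0, limma-voom (limma 3.58.1), other scalings, other filters, a replicate block, counts divided by 4, limma on log2(TPM + 1) and log2(TPM + 0.1), and leaving out each library. Assembled loci were added after seeing the data. The procedure was tested on simulated data.

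The labels give both groups replicate numbers 1 to 3. Across 10923 genes, deviations from the group means correlated at 0.235, 0.258 and 0.168 between libraries of equal number. Between libraries of different number the correlations ran from -0.24 to -0.0019. Deviations cancel within each group, so positive values at equal numbers push the others down, and the contrast is no separate evidence. From the positive values at equal numbers, the numbers were taken to pair the libraries, although the methods describe no pairing. The fit with a replicate block and the comparison within pairs are given as alternatives. The main test and the permutation tests of the shares and ratios above used no pairing.

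Named are the members, *Phf2*, the other light chains, *Mylk* and *Mylk3*, at most 4 genes past the threshold with the largest change of each further list, and the 5 genes of most similar profile. *Mylf-ps*, *Ccdc63*, *Gm27342* and some marker and partner genes were named outside this rule. The members and lists were chosen with earlier results of these data known. Coordinates are those of the deposited tables, and promoters are from RefSeq. Figures were drawn with Python 3.11.15.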

Additional observations from a re-analysis of the deposited data

Results flagged for a closer look

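An assembled locus upstream of the main *Mylpf* locus was found in 2 *Phf2* KO libraries and in none of the control libraries, among the assembled loci, which the comparisons above used only for shares and ratios. It had 2.081 TPM in *Phf2* KO replicate 1, where it began at position 127208887 of chromosome 7, and 1.178 TPM in *Phf2* KO replicate 2, where it began at 127208859. In *Phf2* KO replicate 3 the single assembled *Mylpf* locus itself began at 127208859, and in the 3 control libraries it began at 127211608, the RefSeq start. These values are small beside the main locus, at 2104 to 3118 TPM in the 5 libraries where it stood alone or apart. The annotated gene begins at 127208890, so the small locus lies at its start. TPM of the reference gene minus that of the main locus was 0.739, 0.632 and 0.5 in the control wells. It was 0.689 and 0.364 in *Phf2* KO replicates 1 and 2, and -7.34 in replicate 3 with its single longer locus. A surplus of this size was thus seen in both groups. The difference between the groups was not tested.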

How the results depend on the processing

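*Myl1* and *Myl4* kept their direction and their call under every alternative run. The members lower past the threshold numbered 2 in both limma fits on TPM, 2 to 5 with a library left out and 3 to 5 in the other fits. Genes past the threshold numbered 158 and 178 in the limma fits with a pseudocount of 1 and 0.1, 468 to 1039 with a library left out, and at most 1527 (DESeq2). Partner genes past the threshold numbered 5 and 6 in these limma fits and 13 to 21 with a library left out, against 22. *Mylk4* turned to 0.13 and 0.16 (log2) in the limma fits. *Myl12a*, near 0 throughout, was at 0.00054 in both limma fits and ranged from -0.059 to 0.018 with a library left out (positive without control replicate 2, at 0.0045, and with *Phf2* KO replicate 2 or 3 removed, at 0.014 and 0.018), and *Myl12b* turned to 0.0035 and 0.0036 in the limma fits. From counts, the *Mylpf* share differed by 0.0232 points, the *Mylk2* share by 0.546 points, the log2 ratio of *Mylk2* to *Mylk4* by 0.033 and that of *Myl4* to *Mylpf* by -0.36. From assembled loci the *Mylpf* share differed by 0.0414 points and the ratio of *Myl4* to *Mylpf* by -0.35. The causes were not tested.

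The replicate block changed no call among the members, and *Mylk* was the 1 other named light chain or kinase whose call it changed (adjusted p = 0.0448). Among the partner genes it also removed the calls of *Myh4* (0.0657) and *Myh7* (0.0873), leaving 6 sarcomeric heavy chains, and added *Ppp1r12a* (0.0235) and *Six4* (0.0364). Compared within pairs of equal number, the log2 ratios changed by -0.30 (*Myl4* to *Myl1*), -0.44 (*Myl4* to *Mylpf*) and -0.53 (*Mylk2* to *Mylk4*), each with an exact permutation p of 0.25, the smallest that 3 pairs allow. Another scaling moved the median of all genes to at most -0.011. *Myl2* and *Myl3* were limited by depth.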

Other observations

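The assembled locus of *Myl4* began at 104576985 on chromosome 11 in all 3 control libraries. In *Phf2* KO replicates 1 and 2 it began at 104550531 and 104550529, just before the RefSeq start at 104550663, and in *Phf2* KO replicate 3 at 104575446. Its TPM was 1182, 1305 and 1055 in the control wells, against 750.4, 683 and 683 after *Phf2* KO, so the lower level in *Phf2* KO cells was seen in this measure too.

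*Mylk4* was assembled as 3 loci in *Phf2* KO replicate 1 and as 1 locus in each other library. In *Phf2* KO replicate 1 the 3 loci lay along the gene, at 3.591, 3.993 and 3.289 TPM. TPM is per length, so their sum of 10.9 adds pieces of the gene and cannot be set against a single locus. By CPM of the whole gene this library was the lowest of all, at 11.7. The single locus had 4.36 and 5.25 TPM in *Phf2* KO replicates 2 and 3. It had 6.64, 6.57 and 4.93 TPM in control replicates 1, 2 and 3. The other 5 libraries thus ranged from 4.36 to 6.64 TPM.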
